A study of Homo sapiens with 2 samples.

Results

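A set of 44 genes that regulate apoptosis was followed in A375 cells after THOC2 knockdown. The set holds the BCL2 family, the caspases, the inhibitor of apoptosis (IAP) proteins, proteins released from mitochondria, and the death receptors with their ligand and adaptors. Members were every probe whose gene symbol in the array's annotation was one of the 44. All 44 genes were on the array, with 69 of its 58199 probes, out of 34757 gene symbols. A375 is a line of human melanoma cells. RNA was taken 48 h after transfection, from 1 culture given a control siRNA (NC) and 1 culture given an siRNA against THOC2 (si-THOC2), and each was hybridized to 1 array. The THO complex, to which THOC2 belongs, takes part in the export of mRNA from the nucleus, and the study also measured apoptosis in these cells by flow cytometry. There was no replicate, so the conditions could not be tested against each other, and all differences are those between 1 array and the other.

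Apoptosis is a programmed cell death carried out by caspases, proteases that cut other proteins. In the mitochondrial route, BH3-only proteins sense damage, survival proteins such as BCL2 and MCL1 hold them back, and BAX and BAK1 open the outer mitochondrial membrane. Cytochrome c then leaves the mitochondrion and activates caspase-9, while DIABLO (also called SMAC) and HTRA2 bind IAP proteins and relieve their block on caspases. In the other route, a ligand binds a death receptor on the cell surface, and the adaptor FADD recruits caspase-8. In the melanocyte lineage, BCL2 is known as a protein on which survival of the cells depends.

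The labels of each sample conflict, with one condition in its title and description and the opposite one in its source field; titles and descriptions were followed. The methods list 4 siRNAs against THOC2, and the sources used here do not tie 1 of them to the array. On the array so labelled si-THOC2, the signal of one THOC2 probe was 40.9 against 136 with NC, a log2 fold change of -1.42, and that of the other was 35.1 against 67.3, or -0.63. The array was an Agilent design with 60-base probes placed on hg19. Values are processed signals, and a log2 fold change is the si-THOC2 minus the NC value after each array was reduced by its 75th percentile, 6.62 with NC and 6.31 with si-THOC2. Equal signals on both arrays thus give a log2 fold change of 0.31. A probe was compared if it was well above background on at least 1 array (25345 probes), and 22207 were so on both. The technical SD is the median SD of the log2 fold change among spots that repeat a probe within an array. It was 0.05 for a log2 signal over 8 (244 probes) and 0.10 from 6 to 8 (36 probes). From 4 to 6 it was 0.17, from only 5 probes, and under 4 it was 0.42, from 15 probes. This technical SD leaves out the spread between cultures. Of the 8 melanocyte markers, SOX10, with signals of 6196 and 5196, had a probe well above background on both arrays. So did MITF, S100B and DCT, the last dim at 18.0 and 24.4. MLANA had one with si-THOC2 alone, and TYR, TYRP1 and PMEL on neither array. AXL and NGFR, often high in melanoma cells with little pigment, were well above background on both. Of markers of other cell types, 2 of 3 keratinocyte, 3 of 4 leukocyte, 1 of 3 endothelial and 2 of 3 fibroblast genes had a probe well above background on both arrays, and only the fibroblast gene DCN (62.4 with NC, 149 with si-THOC2) differed by 2-fold there. The part of other cells in the member values was not tested.

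Most of the apoptosis regulators lay near 0, as most genes of the array did. With si-THOC2, 2 of 61 compared member probes (3.28%) were lower by at least 2-fold, 1 of DIABLO and 1 of CASP8, beside 3.33% of all compared probes. No member probe was higher by 2-fold, beside 2.93% of all. These shares take dim signals as measured. With dim signals raised to the lowest signal well above background, 225 of all 25345 compared probes were lower and 476 higher. The member counts stayed at 2 and 0. The DIABLO and CASP8 probes were among those well above background on both arrays. There, 2 of 59 member probes (3.39%) stand beside 0.365% of all probes lower and 0.829% higher. At 1.5-fold, 3 member probes were lower, the third of BAD, which is 4.92% of those compared beside 7.69% of all, and none was higher, beside 6.14% of all. On both arrays these 3 were 5.08% of the member probes, beside 2.94% of all probes lower and 3.84% higher. Over the 40 member genes measured on both arrays, the median log2 fold change was 0.0014, with 20 genes below 0 and 20 above, and 26 of them (65.0%) lay within 0.25 of 0. By gene means, 2 of the 40 (DIABLO and CASP8) were lower by 2-fold and none was higher, beside 0.352% and 0.837% of all genes. Over all 15647 genes so measured, the median was 0.04, 43.2% were below 0 and 67.2% lay within 0.25 of 0. The remaining members were CASP1, measured with NC alone, and APAF1, TNFRSF10D and TNFSF10, measured on neither array. Of the 8 member probes on neither array, 1 was of APAF1, 1 of TNFRSF10D, 3 of TNFSF10, 2 of CASP10 and 1 of BMF.

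**Figure D1:**
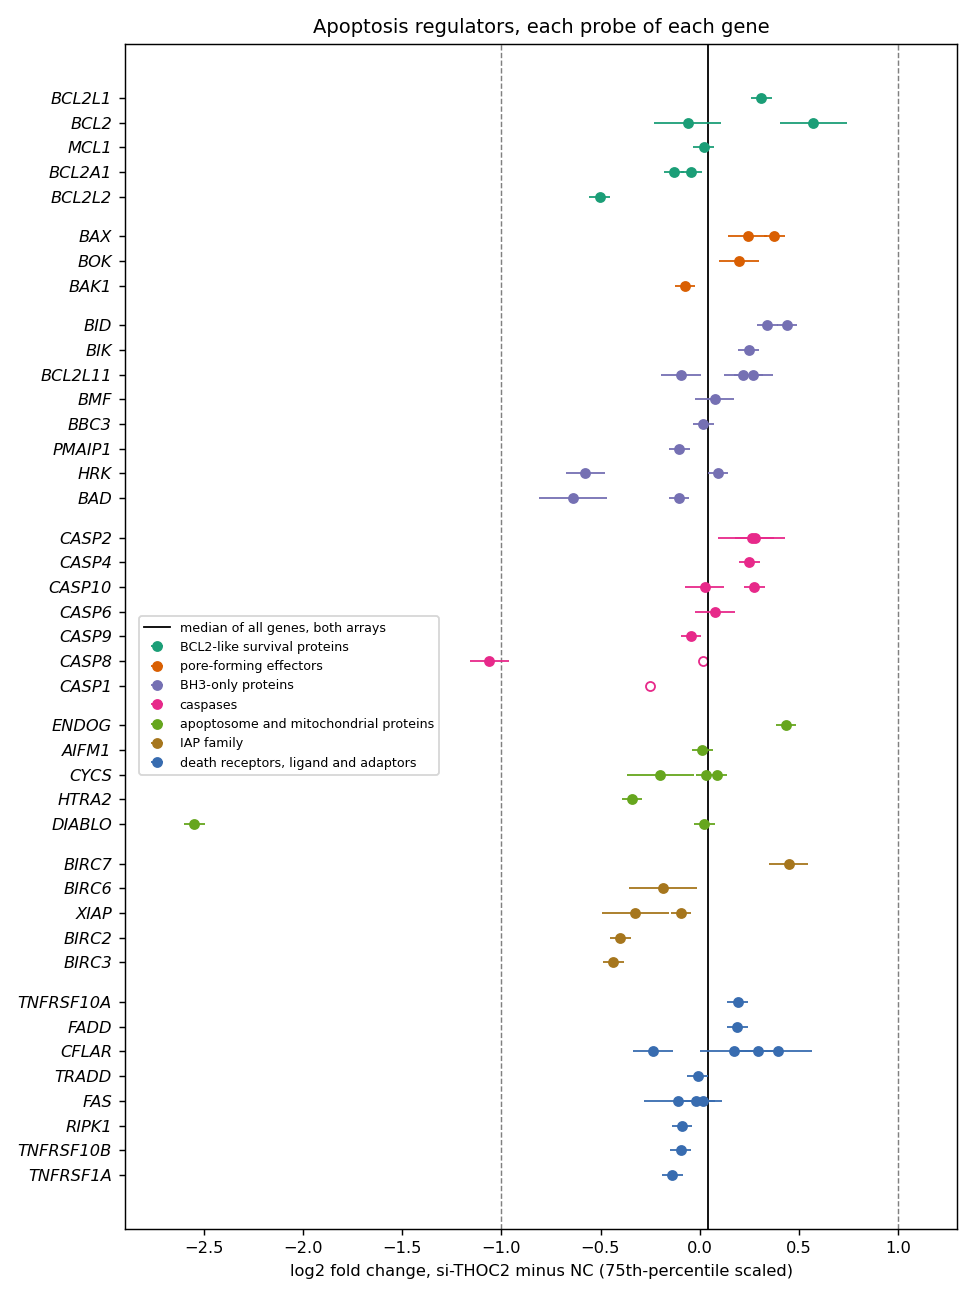
Log2 fold change of each compared probe (horizontal axis, si-THOC2 minus NC) for each member gene (vertical axis), coloured by role. Bars are the technical SD at the probe's signal, and open circles are probes well above background with NC alone, placed by their measured signals. Dashed lines mark 2-fold and the solid line the median of all genes on both arrays (0.04). Of 59 filled points, 37 lie within 0.25 of 0, and only the upstream DIABLO probe (-2.55) and 1 CASP8 probe (-1.06) lie beyond a dashed line.

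The death receptors and their partners stayed near 0. All 8 genes of this group measured on both arrays lay between -0.14 (TNFRSF1A) and 0.19 (TNFRSF10A), with a median of -0.02. TNFRSF10B, a receptor for the ligand TRAIL and the brightest member of the group, had signals of 16012 (NC) and 12089 (si-THOC2), a value of -0.10 (technical SD 0.05). TNFRSF10A, the other signaling TRAIL receptor, went from 431 to 397. TNFSF10, the gene of TRAIL itself, and TNFRSF10D, a TRAIL receptor without a working death domain, gave no signal well above background. The adaptor FADD had signals of 9539 and 8779, a log2 fold change of 0.19. The adaptors RIPK1 and TRADD stood at -0.09 and -0.01, and the receptor FAS at 0.02, -0.02 and -0.11 by its 3 probes, of which 2 overlap. CFLAR, which competes with caspase-8 for FADD, was the only gene of the group whose probes differed by over 0.5. Its log2 fold changes ran from -0.24 (signal 193 to 132) to 0.40 (35.5 to 37.7), with 0.30 and 0.17 between, and the mean was 0.16. Of these probes, the one at -0.24 lies furthest upstream, from 202000731 on the plus strand of chromosome 2, and the one at 0.40 furthest downstream, from 202031892.

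CASP8, the caspase that death receptors activate, had the lowest value of the caspases. Of its 2 probes on the plus strand of chromosome 2 (hg19), the one at chr2:202151838-202151897 was lower by 2-fold, and the one at chr2:202136256-202136315 lies nearer to the start of the gene. They are shown by the 30 bases at their 3′ ends because the value of the gene on both arrays rests on the first alone.
CASP8 probe, from 202151838: ttcagattgttatctatcaactataagccc
CASP8 probe, from 202136256: ggtcttttaagtttcttttgcaagaggaaa
The first probe gave signals of 169 (NC) and 65.5 (si-THOC2). Its log2 fold change was -1.06 with a technical SD of 0.10, or 2.09-fold lower. Of 3103 probes with a log2 signal within 0.5 of it, 0.258% were lower by more. Among the 48 spots within 5 rows and 5 columns of it, none was lower by 2-fold and the median was 0.07. The second gave 17.0 (NC) and 13.9 (si-THOC2), and on the si-THOC2 array it was not well above background, so no fold can be given. With normexp background correction the lower probe moved to -0.69, under 2-fold. The other caspases lay between -0.04 and 0.27 as gene means. CASP4, an inflammatory caspase and the brightest of the group, had signals of 6698 and 6426, a log2 fold change of 0.25. CASP2, linked to the response to DNA damage, stood at 0.28 and 0.26 by its 2 probes. CASP9, the caspase of the mitochondrial route, went from 682 to 534, a value of -0.04, and CASP6, an executioner, from 117 to 99.9, a value of 0.08. CASP10, a relative of CASP8 at the same death receptors, stood at 0.28 and 0.03 by the probes measured on both arrays. CASP1 gave 16.1 (NC) and 10.9 (si-THOC2), the latter not well above background, and no fold can be given.

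**Figure D2:**
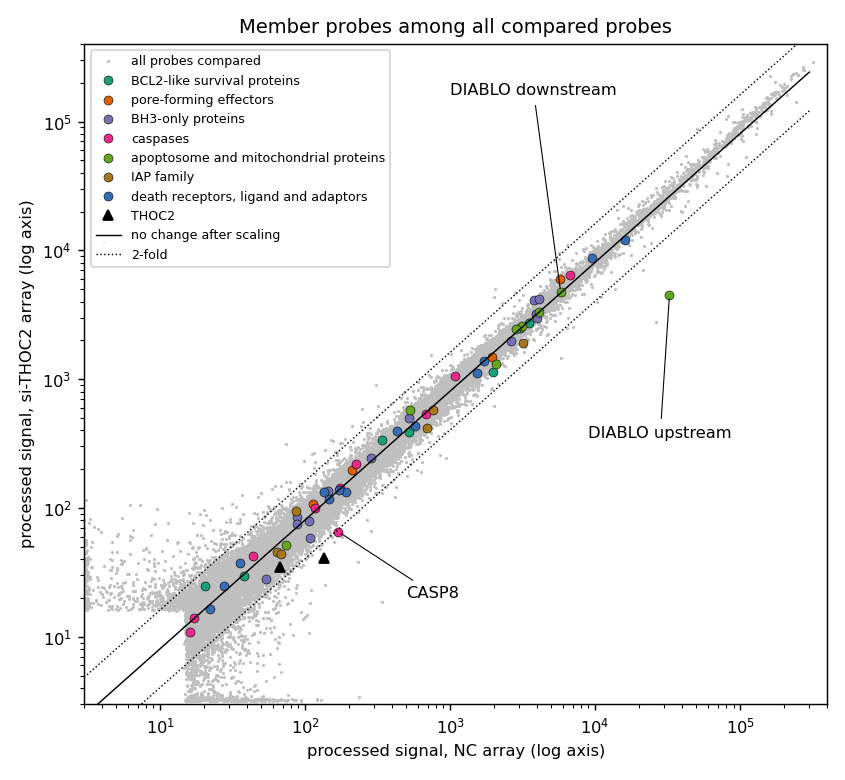
Processed signal on the NC array (horizontal, log axis) against the si-THOC2 array (vertical, log axis) for all 25345 compared probes (grey) and the member probes (coloured by role), with THOC2 as triangles. The solid line marks no change after scaling and the dotted lines 2-fold; the upstream DIABLO probe lies far below the band at 32553 and 4488, while the downstream probe lies on the solid line.

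The BH3-only group had a median of 0.05 over 8 genes, from -0.37 (BAD) to 0.39 (BID). This median lay between -0.02 and 0.05 under the other scalings and background corrections. BID, which caspase-8 cuts to link both routes, had the brightest probe of the group. Its signals were 4129 and 4221 by one probe and 3776 and 4135 by the other, log2 fold changes of 0.34 and 0.44 (technical SD 0.05 each). Both BID probes were above most others of like signal, of which 7.25% and 3.35% were higher. For BAD, which binds BCL2L1 when growth signals stop, the probes differed by 0.53. The dim one, from 64044428 on chromosome 11, went from 54.1 to 28.1, a value of -0.64 (technical SD 0.17), and the bright one, from 64037483, from 2643 to 1983, a value of -0.10. Of the probes of a signal like the dim one, 6.39% were lower still, and with normexp background correction it stood at -0.19. HRK, known from neurons, showed a like gap of 0.67 between its probes. One stood at -0.58 (108 to 58.6) and the other at 0.09 (285 to 245). For BAD and for HRK alike, the array's annotation names a RefSeq transcript for the higher probe and none for the lower one. BIK stood at 0.25, BMF at 0.08, and the p53 targets BBC3 (PUMA) and PMAIP1 (NOXA) at 0.02 and -0.10. BCL2L11 (BIM), a broad killer protein that ERK signaling keeps low, stood at 0.27, 0.22 and -0.09 by 3 probes.

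Among the survival proteins, the values spread from -0.50 to 0.31 with a median of 0.02 over 5 genes, and the sign of that median changed with the scaling (-0.13 to 0.05). BCL2L2 (BCL-W) had the lowest value. Its signals were 1984 (NC) and 1129 (si-THOC2), a value of -0.50 (technical SD 0.05), and 0.928% of 1724 probes of like signal were lower. BCL2L1 (BCL-XL) had the highest value, since its equal signals of 339 and 340 give 0.31 after scaling. MCL1, a short-lived survival protein, had signals of 3034 and 2482, a log2 fold change of 0.02. BCL2A1, a survival gene driven by NF-κB and MITF, had the brightest probe of the group with signals of 3510 and 2752, and stood at -0.04 and -0.13 by its 2 probes. BCL2 was dim, with 37.9 and 29.4 by one probe and 20.5 and 24.6 by the other. Those probes gave -0.06 and 0.57, both with a technical SD of 0.17, and so differed by 0.63.

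Of the pore-forming effectors, BAX was the member with the most spots. One BAX probe was printed on 10 spots, whose signals ran from 5455 to 5948 with NC and from 5344 to 6192 with si-THOC2. The log2 fold changes of these spots ran from 0.27 to 0.45, with a mean of 0.38 and an SD of 0.05. The other BAX probe, with signals of 113 and 108, gave 0.24. BAK1, the partner effector, had signals of 1942 and 1488, a value of -0.07, and BOK, a relative of both, 211 and 196, a value of 0.20. The gene mean of BAX was above 0 under each of the 10 alternative settings, from 0.19 to 0.31.

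The IAP genes had the lowest group median, -0.21 over 5 genes, with 4 of the 5 below 0. Under each of the other scalings and background corrections 4 of 5 were below 0 as well, and the median ran from -0.27 to -0.16. BIRC3 and BIRC2, neighbours at 11q22.2 that act as ubiquitin ligases in TNF receptor signaling, had the lowest values of the group. BIRC3 went from 3183 to 1899, a value of -0.44, and BIRC2 from 688 to 421, a value of -0.40, each with a technical SD of 0.05. Among probes of like signal 1.76% and 3.53% were lower than these. XIAP, the direct inhibitor of caspases, stood at -0.32 (68.3 to 44.0) and -0.09 (763 to 577) by its 2 probes, and BIRC6 at -0.18 (64.2 to 45.6). BIRC7 (livin), known from melanoma, was the exception, with signals of 86.5 and 95.3 and a value of 0.45 (technical SD 0.10). None of these genes reached 1.5-fold.

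Of the genes for proteins released from mitochondria, HTRA2, ENDOG, CYCS and AIFM1 were within 1.5-fold, and DIABLO was not by its upstream probe. HTRA2, a protease that binds IAPs, went from 2061 to 1312, a value of -0.34, and 2.87% of probes of like signal were lower. ENDOG, a nuclease, went from 526 to 574, a value of 0.44, and 3.25% of probes of like signal were higher. Cytochrome c (CYCS), whose probes may also bind transcripts of its processed pseudogenes, stood at 0.03, 0.09 and -0.20. AIFM1, which takes part in death without caspases, had signals of 4080 and 3323, a value of 0.01. APAF1, the scaffold of the apoptosome, had signals of 8.49 and 11.6, not well above background on either array.

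DIABLO was measured by 2 probes that gave different readings. Both lie on the minus strand of chromosome 12, so the probe with the higher position is the upstream one. The upstream probe is annotated to transcript variant 5 at chr12:122710823-122710882 and the downstream probe to transcript variant 1 at chr12:122692558-122692617 (hg19), 18265 bases apart. The 30 bases at their 3′ ends are shown, with capitals for the 27 bases that the upstream probe shares with a DIABLO start window of RefSeq.
DIABLO upstream probe: cagCGTCACGGCGCCCGACTCAGCTCCGCG
DIABLO downstream probe: tttaacctgttttcagtcttatttacgtcg
Of the upstream probe's bases 76.7% are G or C, and of the downstream probe's 36.7%. RefSeq (GRCh38.p14) lists 4 DIABLO starts, each with a window of 250 bases before and 50 after. The capitals open the window chr12:122226003-122226302, whose start is at 122226052. The upstream probe therefore lies 224 to 283 bases before that start, and 233 to 292 bases after another start at 122226568. It also lies 1121 to 1180 bases after the start at 122227456, and before the one at 122225771. A transcript that begins at 122226052 or at 122225771 does not hold the probe's bases. The RefSeq table gives starts and not exons, so whether other transcripts hold these bases was not analysed here.

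The upstream DIABLO probe gave signals of 32553 (NC) and 4488 (si-THOC2). Its log2 fold change was -2.55, or 5.85-fold lower, and under the 10 alternative settings it ran from -2.68 to -2.50. The technical SD at its signal was 0.05, which comes from repeated probes across the array and not from this 1 spot or its place. The downstream probe had signals of 5786 and 4744, a log2 fold change of 0.02 with the same technical SD, and its sign changed with the scaling, from -0.09 to 0.02. The gap between the probes was 2.57, the widest among the 14 member genes with 2 or more probes on both arrays. The next widest were HRK (0.67), BCL2 (0.63), CFLAR (0.63) and BAD (0.53). The DIABLO mean of -1.26 therefore describes neither probe.

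The place of the spots on the array differed as well. The upstream probe was printed at row 374 and column 5 of 384 rows and 164 columns, near a corner, and the downstream probe at row 300 and column 74. Around the upstream spot, within 5 rows and 5 columns, 42 other spots were well above background on both arrays. Their median log2 fold change was -0.02, but their SD was 0.73, beside 0.32 over all 24515 such spots. Of these neighbours 5 were lower by 2-fold (11.9%), beside 0.330% of all such spots, and 1, of HIVEP2, was higher, at 1.46. Around any other member spot at most 1 neighbour was lower by 2-fold, and around the downstream DIABLO spot none of 45 was. Some other member spots had more neighbours higher by 2-fold, 3 of 39 around a FAS spot and 2 of 41 around the dim CASP8 spot. By the larger blocks used for centring, the upstream DIABLO spot did not stand out. The share lower by 2-fold was 9.05% in its block and 9.22% in that of BCL2L1, the highest among members.

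The brightest spots were examined in the same way. Leaving out control spots, 834 spots of the array had a signal over 20000 with NC, and the 3 among them that were lower by 2-fold all lay here. A probe without a gene symbol at row 372 and column 4 went from 26195 to 2798 (-2.92), DIABLO at row 374 and column 5 followed, and SNAR-G1, a small noncoding RNA gene, at row 377 and column 7, went from 21223 to 7027 (-1.28). The next lowest of the 834 stood at -0.81. In the next row of the same column, the noncoding transcript XLOC_l2_015722 went from 138 to 25.0 (-2.15). Further down, MRPL9 at row 378 and column 5 went from 8094 to 4600 (-0.51) and ANKRD45 at row 379 and column 6 from 1999 to 624 (-1.37), while XLOC_l2_015885 at row 378 and column 10 had signals of 68624 and 68068, a value of 0.30. Of the 19 neighbours with a log2 signal over 8, 3 were lower by 2-fold.

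**Figure D3:**
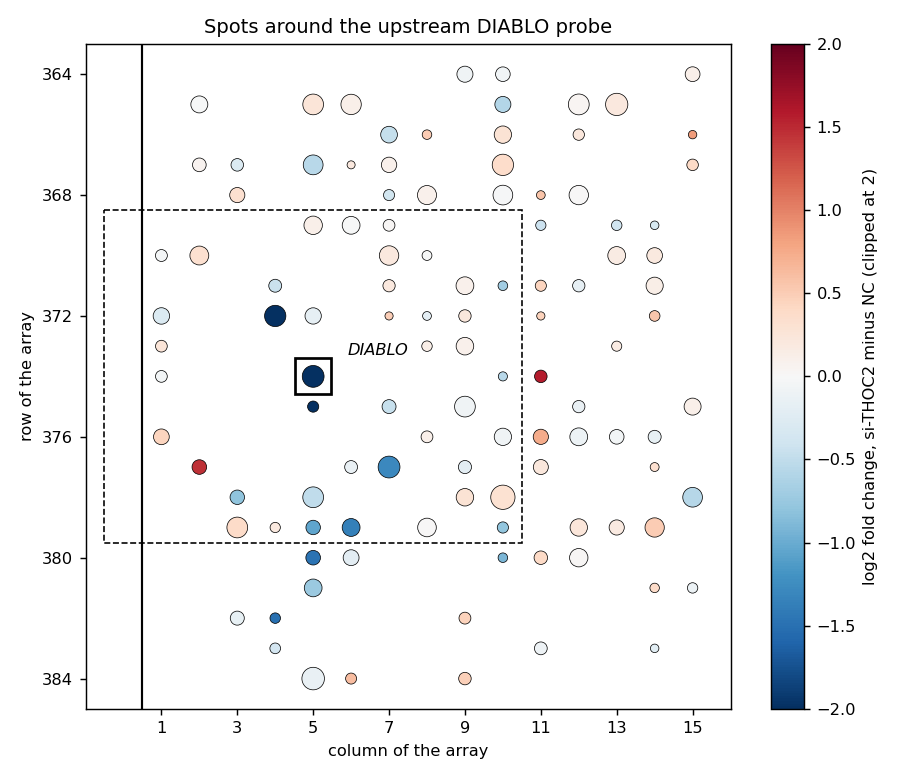
Spots well above background on both arrays around the upstream DIABLO spot (open square), by column (horizontal) and row (vertical) of the array; colour is the log2 fold change clipped at 2, a larger point has a higher signal, the dashed frame is the window of 5 rows and 5 columns, and the vertical line is the array's edge. Besides DIABLO, 5 of the 42 spots in the frame are lower by 2-fold, and most of the rest are pale.

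The pixels of the upstream DIABLO spot were uneven with si-THOC2. Their coefficient of variation (CV), the SD of the pixels as a share of their mean, was 6.42% with NC but 26.8% on the si-THOC2 array. Of 1115 spots of like signal on the si-THOC2 array none had a higher CV, and their median was 8.76%. Spots marked as outliers, a mark that uneven spots can receive, had been left out of the 1115. That none was higher is thus partly set by this filter. The upstream DIABLO spot itself carried no such mark. On the NC array 56.6% of 343 spots of like signal had a higher CV. The downstream spot had CVs of 11.5% and 10.5%. The unnamed probe at row 372 had a CV of 26.6% with si-THOC2, and SNAR-G1 one of 15.6%.

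**Figure D4:**
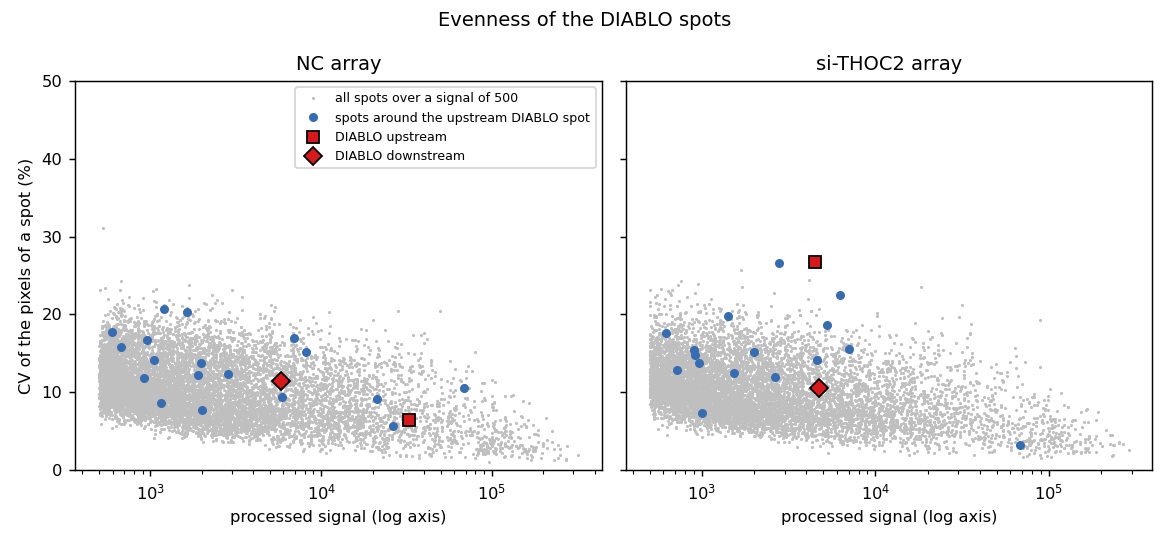
CV of the pixels of a spot (vertical, %) against its processed signal (horizontal, log axis) on the NC array (left) and the si-THOC2 array (right). Shown are spots well above background on both arrays, with a signal over 500 and no outlier mark. The upstream DIABLO spot (red square) lies within the grey band with NC at 6.42% and above it with si-THOC2 at 26.8%, while the downstream spot (red diamond) lies within the band on both.

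Repeated probes give a further reading of this place. Of 248 probes with repeated spots and a log2 signal over 8, 4 had a spot in the window. The AIMP1 spot at row 374 and column 3 lay 0.48 below its probe's median log2 fold change, and 0.0820% of 2440 repeated spots lay lower. The spots of DDX28, CDK1 and MTHFD2 deviated by -0.01, -0.02 and 0.11. The scanner software marked 3 of these 4 spots as outliers, those of AIMP1 and CDK1 on both arrays and that of MTHFD2 with NC. Base composition was set beside these values too. Of 55 probes with a log2 signal over 8 and at least the GC share of the upstream DIABLO probe, DIABLO was the only one lower by 2-fold, and the median of the 55 was 0.21, with the next lowest at -0.61. What part the place on the array or the choice of transcript had in the upstream value was not tested.

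Leaving out the upstream DIABLO probe, 1 of 60 compared member probes (CASP8, 1.67%) was lower by 2-fold, beside 3.33% of all, and none was higher, beside 2.93%. On both arrays this was 1 of 58 (1.72%), beside 0.365%. With DIABLO taken from its downstream probe, the median of the 40 member genes on both arrays was 0.02, with 19 below 0 and 21 above. A further list of 40 genes of the same pathways, among them other caspases, BCL2 relatives and TNF receptor family members, had 33 measured on both arrays. Their median log2 fold change was 0.10, from -0.49 to 0.61, with 10 below 0 and 23 above, and none passed 2-fold.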

How the data were processed

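Total RNA of 1 NC and 1 si-THOC2 culture was hybridized to 1-colour Agilent SurePrint G3 v3 arrays. The authors deposited scanner output with an intensity per spot, made with Agilent Feature Extraction 10.7.1.1 (version per the submitters' processing notes), whose processed signal has the background subtracted. They also deposited quantile-normalized log2 values of both arrays, used as an alternative, and a table of their own fold changes between the arrays, which was not used. The methods' threshold of 2-fold was kept, while the Student's test they name was left out, since it needs replicates.

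Control spots and spots marked as outliers (230 with NC, 253 with si-THOC2) were left out. No spot was saturated. Spots of a probe were averaged as log2 processed signal, and the array's 75th percentile was subtracted. Gene values are means over probes. For a named probe well above background on 1 array, only a bound was considered. It was set against the lowest signal well above background (14.7 with NC, 15.9 with si-THOC2), with no fold where it falls under 1. Shares, counts and medians over compared probes or genes use the processed signals as measured, dim ones included. Spots or probes of like signal lie within 0.5 on the log2 scale. Precision is limited by the number of arrays, 1 in each condition.

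Members and lists were chosen with earlier results of these data known. The rule gave full values to DIABLO, to members changed by 2-fold, or by 1.5-fold on both arrays, to the brightest member of each role and to genes whose probes differ by over 0.5. Other members were named after their values were seen. Calculations in R 4.3.3 (limma 3.58.1) and Python 3.11.15 (pandas 2.3.3, numpy 2.4.6, statsmodels 0.14.6) were tested on simulated data. Alternatives were scaling on probes of both arrays, quantile normalization, lowess centring (span 0.3), centring in 128 blocks, normexp (offset 50), other detection filters, the authors' normalized values, outlier spots kept, dim signals at their limit, folds of 1.5 and 3, and genes in place of probes. Start windows are from RefSeq (GRCh38.p14), and probe positions are those of the deposited annotation (hg19).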

Additional observations from a re-analysis of the deposited data

How the results depend on the processing

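No paired analysis was possible because each condition has only 1 array, and for the same reason no array could be left out. Leaving out the upstream DIABLO probe was chosen after seeing the data, and the other alternatives were listed earlier. The count of member probes lower by 2-fold, 2 in the reported values, was 1 with normexp background correction (where the count over all 25345 compared probes went from 844 to 33), 1 at a fold of 3, 1 with genes in place of probes (means over all compared probes, by which CASP8 stood at -0.52) and 1 without the upstream DIABLO probe. The count higher by 2-fold, 0 in the reported values, was 1 with no detection filter, a CASP10 probe not well above background on either array. The median of the 41 member genes compared, -0.01, moved to -0.070 with the 75th percentile over probes on both arrays and to -0.071 with lowess centring, while the median of all compared probes moved from 0.03 to -0.03 and -0.02. The upstream DIABLO probe, at -2.55, stood at -2.61 with the percentile over both arrays, -2.68 with normexp, -2.64 with quantile normalization, -2.63 by the authors' values and -2.64 with lowess centring. The downstream probe, at 0.02, stood at -0.036, -0.090, -0.063, -0.063 and -0.053 in the same order, and at -0.046 with centring by block. The mean of THOC2, -1.03, was -0.51 with normexp. The normexp setting adds an offset of 50 to every signal, which by arithmetic shrinks the fold between dim signals more than between bright ones. Smaller folds for dim probes, such as those of THOC2, are thus partly built into this setting. The share of the offset in the changes under normexp was not tested apart from that of the background step. The means of the 18 member genes recomputed under 10 settings each kept their sign. These were chosen genes, none nearer to 0 than CFLAR (0.16), and members closer to 0, such as MCL1 (0.02), were not recomputed. The detection filters and the limit for dim signals cannot change probes well above background on both arrays. The kept signs were thus partly fixed in advance. Signals near background limit CASP1, BCL2 and the second CASP8 probe, and with 1 culture per condition no value carries an error between cultures.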

Other observations

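Bright control spots in the corners of the array also differed between the arrays. In the corner nearest to the upstream DIABLO spot there were 4 such spots. The one at row 381 and column 1 gave 3152 (NC) and 30554 (si-THOC2), a log2 fold change of 3.59, and the other 3, at rows 383 and 384, stood at -0.0041, 0.19 and 1.08. In the corner across, 3 spots at rows 382 and 383 had signals of 6311 to 6960 with si-THOC2 and of 31698 to 39755 with NC, log2 fold changes of -2.35 to -1.91, and 2 spots at row 384 stood at -0.41 and -0.88.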
